A study of Mus musculus with 18 samples.

Results

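The 10 genes described here encode beta-catenin, the proteins that destroy it and the proteins it works with in the nucleus, and their transcripts were followed through T-cell transformation in mouse thymus. They are Ctnnb1 (beta-catenin), the destruction complex genes Apc, Axin1, Gsk3b, Csnk1a1 and Btrc, the TCF/LEF factors Lef1 and Tcf7l2, and the coactivators Bcl9 and Pygo2. Their probe sets were all those that the platform annotation gives to 1 of these symbols alone. There were 34 such probe sets out of 45101 on the array, for 10 of 18194 genes, and 33 passed the filter on dim probe sets. The exception was 1429427_s_at of Tcf7l2, which lay at or near the lower limit on most arrays. The rule itself uses no measured value, though the genes were chosen with earlier results of these data known.

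In the canonical Wnt pathway, Axin1 and Apc hold beta-catenin while casein kinase 1 alpha (Csnk1a1) and glycogen synthase kinase 3 beta (Gsk3b) phosphorylate its amino-terminal end, which exon 3 of Ctnnb1 encodes. The F-box protein made from Btrc recognises the phosphorylated form and passes it on for breakdown by the proteasome. Beta-catenin that escapes enters the nucleus, binds Lef1, Tcf7l2 and other TCF factors, and recruits Bcl9 and Pygo2. In the thymus, TCF/LEF factors are known for their part in early T-cell development.

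The 18 arrays came from 18 independent mice. Of these, 8 were tumours of CD4Cre-Ctnnbex3 mice with lymphoma, 5 were thymocytes of CD4Cre-Ctnnbex3 mice before transformation, and 5 were control thymocytes. CD4Cre-Ctnnbex3 mice carry a Cre recombinase driven by Cd4 regulatory sequences and a Ctnnb1 allele altered at exon 3, so that beta-catenin without its phosphorylation sites can be made in the cells in which Cre acts. For the control group the series text names LckCre mice (Cre driven by Lck sequences) and the sample labels name wild type, so the group is called control. Ages are not given. All comparisons are of Ctnnb1 exon 3 mice with or without a tumour and of either with the control group, and each pair of comparisons shares 1 group of mice.

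Values are linear probe-set intensities as deposited, and differences are log2 differences ± SE from limma, with 8 lymphomas, 5 mice before transformation and 5 controls. A probe set is said to rise or fall where the Benjamini-Hochberg adjusted p over 29947 probe sets was under 0.05. Intensities under 53.5, the 20th percentile of all values, were set to that floor for the tests. Probe sets bind with different strengths, so levels are compared between groups within a probe set and not between probe sets or genes.

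Array medians lay between 125 and 166. T-cell markers, summed over 11 genes, came to 21823 to 35303 in lymphomas, 49851 to 76646 before transformation and 60346 to 65383 in controls. All 11 fell in lymphomas against either other group, and Ptcra, the pre-T-cell receptor alpha gene, was at the floor in every lymphoma. The 11 macrophage and dendritic cell markers summed to 6483 to 22657, 3285 to 5709 and 3275 to 5052 in the same order. In lymphomas 4 of them rose and 1 fell against mice before transformation, and 7 rose and 2 fell against control. The 8 granulocyte markers summed to 1816 to 4371 in lymphomas, 1559 to 2408 before transformation and 3340 to 10003 in controls. Of these, 5 fell before transformation against control, 3 rose and 1 fell in lymphomas against mice before transformation, and 6 fell in lymphomas against control. Of the 8 thymic epithelium markers, 3 fell in lymphomas against either other group. Of 6 fibroblast and endothelium markers tested, 1 rose in lymphomas against mice before transformation and 3 rose against control. Before transformation against control, 1 of the 11 T-cell markers rose and 3 fell. Beside these counts, 10.4% of all 14019 genes, each by its brightest probe set, were called before transformation against control. The share was 34.6% in lymphomas against mice before transformation and 39.9% in lymphomas against control. Lymphoma 3 carried the male signal (Eif2s3y without Xist), lymphoma 4 both signals and the other 6 lymphomas the female one. All 5 mice before transformation carried the male signal, as did controls 3 to 5, and controls 1 and 2 the female one. Group and sex therefore cannot be told apart in most of the comparison of lymphomas with mice before transformation.

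Across the 33 tested probe sets, 1 rose and 3 fell before transformation against control. That is 12.1% of them, beside 10.4% of all 29947 probe sets (4.48% higher and 5.91% lower), so the count lies near the background. In lymphomas against mice before transformation 1 rose and 13 fell, or 42.4%, beside a background of 36.7% (14.7% higher and 22.0% lower). In lymphomas against control 4 rose and 17 fell, or 63.6%, beside 40.9% (15.6% higher and 25.4% lower). The groups did not overlap on 3 of the 33 before transformation against control (1 higher and 2 lower), beside 10.2% of all probe sets (4.42% higher and 5.77% lower). They did not overlap on 7, all lower, in lymphomas against mice before transformation, beside 16.9% (6.07% higher and 10.8% lower), and on 13, of which 1 was higher and 12 lower, in lymphomas against control, beside 19.9% (7.12% higher and 12.8% lower). The median log2 difference of the members was -0.02, -0.19 and -0.40 in these 3 comparisons, and that of all probe sets -0.01, -0.07 and -0.07. Of the 22 destruction complex probe sets, 1 rose and none fell before transformation against control, 1 rose and 11 fell in lymphomas against mice before transformation, and 2 rose and 12 fell in lymphomas against control. The rises in lymphomas were of 1420957_at of Apc and, against control, also of 1417325_at of Btrc. Without the lymphomas neither would have passed the filter on dim probe sets. Of the 8 probe sets of TCF/LEF factors and coactivators, 3 fell, 2 fell, and 1 rose and 5 fell in the same comparisons. The larger share of calls was thus in the TCF/LEF factors and coactivators in both comparisons with control and in the destruction complex in the other, and the difference between these shares was not tested.

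The direction of calls over the whole array depended on scaling. Lymphomas against mice before transformation gave 4413 higher and 6590 lower probe sets as deposited, 5363 and 5425 after each array was centred on its median, and 6236 and 5891 after quantile normalization. Lymphomas against control gave 4671 and 7592, 5983 and 6137, and 6876 and 6411. The median difference over all probe sets was -0.07 as deposited and 0.03 after quantile normalization in lymphomas against control. Among the members, 2 rose and 12 fell after centring and 4 rose and 12 fell after quantile normalization in lymphomas against mice before transformation. In lymphomas against control 17 of the 21 member calls were kept after centring, with 0 new ones, beside 12120 of all 29947 probe sets. After quantile normalization 18 of the 21 were kept and 3 were new, beside 13287 of all.

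**Figure D1:**
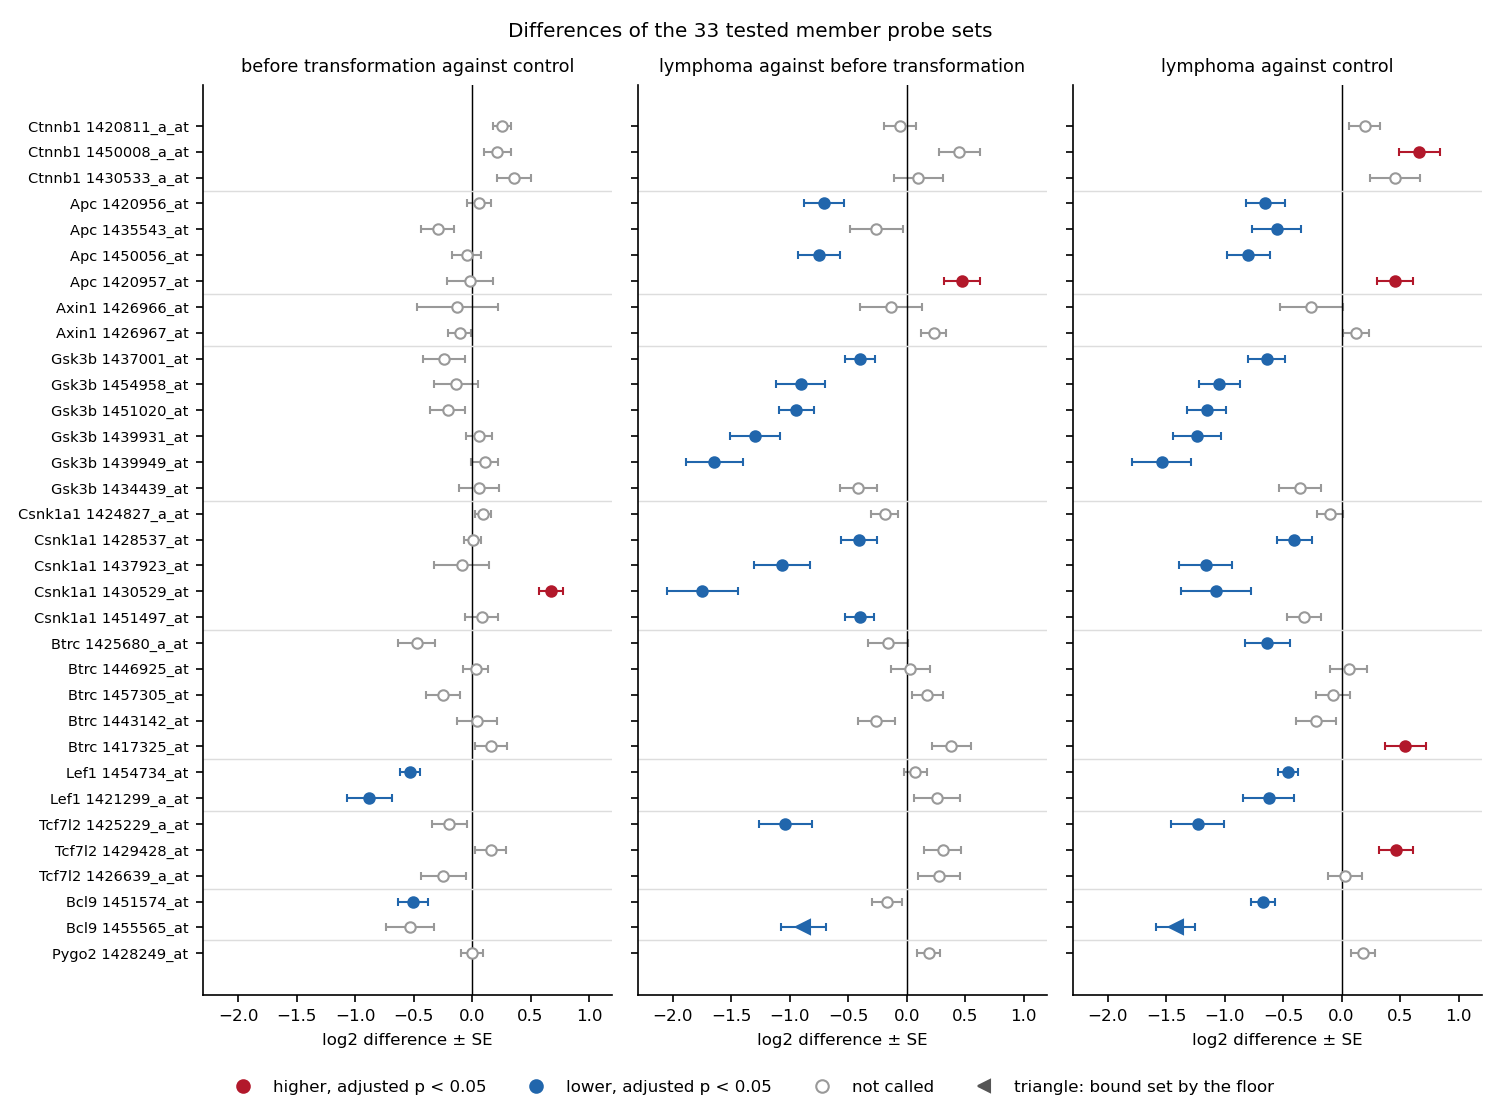
Log2 differences (points) with SE (bars) of the 33 tested probe sets of the 10 genes, in 3 panels for the 3 comparisons; filled points passed an adjusted p of 0.05, and triangles are bounds. Most filled points in the 2 lymphoma panels lie left of 0 and belong to Gsk3b, Csnk1a1 and Apc, while before transformation the filled points are both of Lef1, 1 of Bcl9 and 1 of Csnk1a1.

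No Ctnnb1 probe set passed before transformation against control or in lymphomas against mice before transformation. Probe set 1420811_a_at, the brightest of 3, had 3181 to 6133 with a median of 4029.9 in lymphomas, 4799, 4766, 3826, 4552 and 4333 before transformation, and 3949, 3873, 3983, 3566 and 3282 in controls. All mice before transformation except number 3 lay above every control, but the difference of 0.25 ± 0.08 missed the threshold (adjusted p = 0.071) and passed it in 2 of 24 alternatives, without that mouse (adjusted p = 0.0193) and with 2 blocks, mice numbered 1 and 2 and mice numbered 3 and up. The other probe sets differed by 0.22 ± 0.11 (1450008_a_at, adjusted p = 0.322) and 0.36 ± 0.14 (1430533_a_at, adjusted p = 0.17, passing in 4 of 23 alternatives). The files do not give the stretch of the transcript that each probe set reads, so the loss of exon 3 cannot be read from them.

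In tumours 1 Ctnnb1 probe set was above control. Probe set 1450008_a_at ranged over 1767 to 3870.0 with a median of 2146 in lymphomas, against 1624, 1555, 1226, 1282 and 1552 in controls, so the groups did not overlap. It rose by 0.66 ± 0.17, or 1.59-fold (adjusted p = 0.00675), and missed the threshold among mice numbered 1 and 2 alone (adjusted p = 0.0529) and with sex as a covariate (adjusted p = 0.0601). Before transformation it had 1827, 2024, 1485, 1536 and 1542, within or below the range of the lymphomas, and the difference of 0.45 ± 0.18 missed the threshold (adjusted p = 0.0585) but passed in 9 of 26 alternatives, among them quantile normalization (adjusted p = 0.00581) and leaving out lymphoma 6, lymphoma 7 or mouse 2 before transformation. The other Ctnnb1 probe sets were 0.20 ± 0.13 (1420811_a_at, adjusted p = 0.262) and 0.45 ± 0.21 (1430533_a_at, adjusted p = 0.102) from control, and both passed after quantile normalization (adjusted p = 0.0155 and 0.0134), the second in 4 other alternatives as well. Lymphoma 1 was the highest of the 18 arrays on all 3 probe sets, at 6133, 3870.0 and 3826, and lymphoma 8 came next among the tumours.

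**Figure D2:**
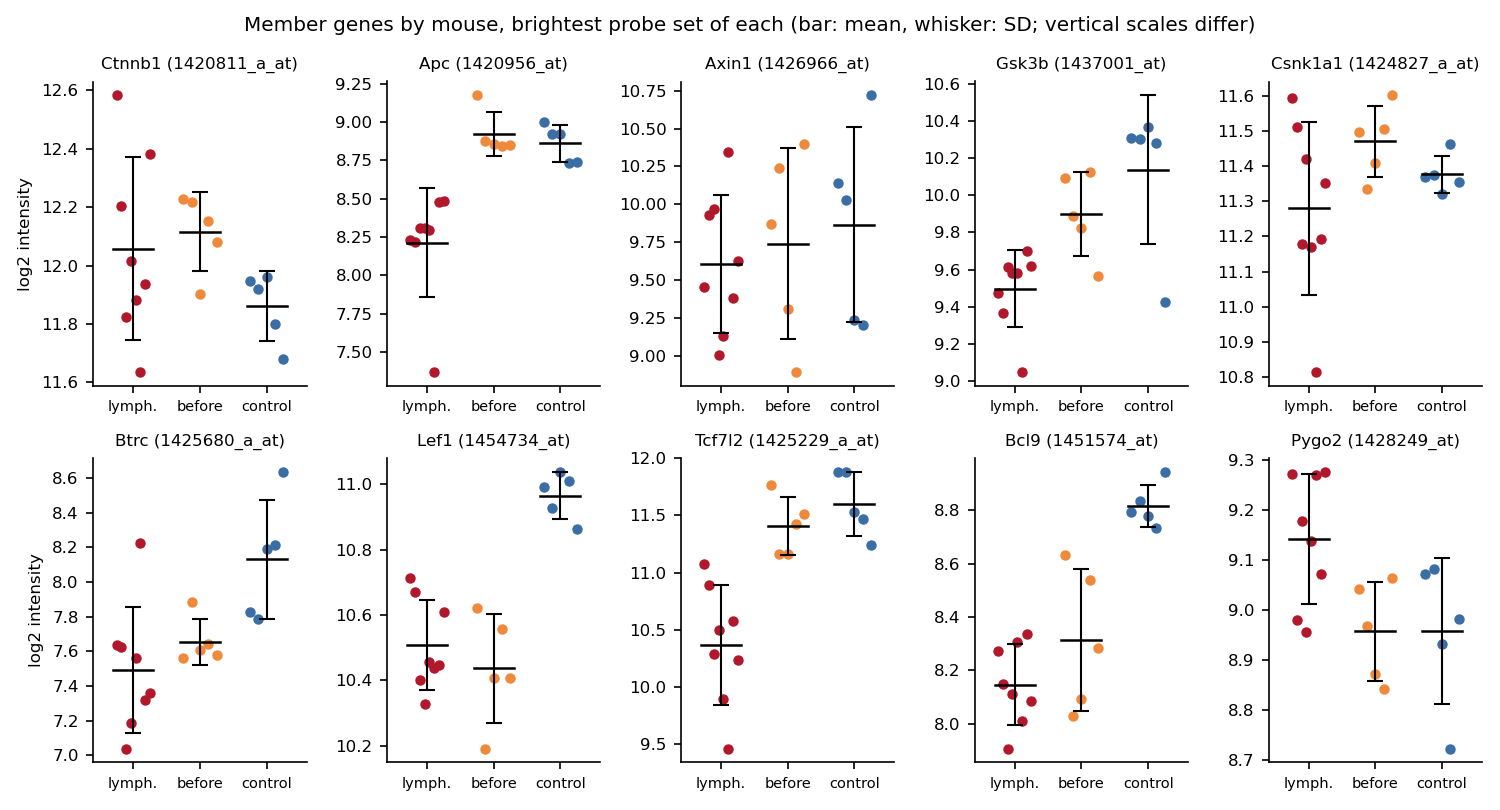
Log2 intensity of the brightest probe set of each of the 10 genes, 1 point per mouse in lymphomas (lymph.), mice before transformation (before) and controls, with the mean as a bar and the SD as whiskers; vertical scales differ between panels. Lymphomas sit apart below both other groups for Apc and Tcf7l2, controls sit apart above both for Lef1 and Bcl9, and the 3 groups overlap for Axin1 and Pygo2.

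Gsk3b encodes a kinase that phosphorylates beta-catenin for destruction, and 5 of its 6 probe sets fell in tumours. None of its 6 probe sets changed before transformation, with differences from -0.24 to 0.11. The 5 fell against both other groups. Probe set 1439949_at had 99.5 to 331 with a median of 165 in lymphomas, against 569.5, 500.2, 496, 529 and 491 before transformation and 541, 524, 519, 466 and 369 in controls. No lymphoma reached the lowest mouse of either group. Its fall was 3.13-fold against mice before transformation (-1.65 ± 0.25, adjusted p = 0.000156) and 2.91-fold against control (-1.54 ± 0.25, adjusted p = 0.000226).

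Probe set 1439931_at had 119.9 to 341 with a median of 239.5 in lymphomas, against 592, 435, 518, 643 and 545 before transformation. It too fell without overlap, by 1.29 ± 0.21 on the log2 scale (adjusted p = 0.000346). Probe set 1451020_at had 201 to 372 with a median of 349.9 in lymphomas, against 753, 648, 611, 587 and 524 before transformation, and fell by 0.95 ± 0.15 (adjusted p = 0.000274) with the groups apart. Probe set 1454958_at fell by 0.91 ± 0.21 (adjusted p = 0.00366) with a slight overlap, the highest lymphoma being at 621 and the lowest mice before transformation at 613 and 619.

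The remaining Gsk3b probe sets moved less. For 1437001_at, the brightest, lymphomas had 529 to 830.4 and mice before transformation 757 to 1117, a fall of 0.40 ± 0.13 (adjusted p = 0.0252) that missed the threshold without mouse 1 or mouse 4 before transformation (adjusted p up to 0.0764) and in 5 other alternatives, among them centring and quantile normalization (adjusted p = 0.0793 and 0.0622). Probe set 1434439_at, the dimmest, differed by -0.41 ± 0.16 and missed it (adjusted p = 0.0566), though it passed in 7 of 25 alternatives, centring and quantile normalization among them. The 6 probe sets thus shared a sign and differed in size.

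Csnk1a1 encodes the kinase that primes beta-catenin for Gsk3b, and 4 of its 5 probe sets fell in lymphomas against mice before transformation. The largest difference was in 1430529_at, with 142 to 562 and a median of 345 in lymphomas, against 991, 823, 981, 1211 and 922 before transformation and 576, 604, 599, 679.9 and 609 in controls. The 3 groups did not overlap on this probe set. It rose 1.60-fold before transformation against control (0.67 ± 0.10, adjusted p = 0.00136), and in lymphomas it fell 3.36-fold against mice before transformation (-1.75 ± 0.30, adjusted p = 0.000504) and 2.11-fold against control (-1.08 ± 0.30, adjusted p = 0.00959). The rise before transformation missed the threshold when all 3 groups shared 1 fit (adjusted p = 0.253) and among mice numbered 1 and 2 alone (adjusted p = 0.0521), and otherwise passed, down to an adjusted p of 0.000448.

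The other Csnk1a1 probe sets showed no such rise. Probe set 1437923_at had 366 to 955 with a median of 718 in lymphomas, against 1718, 1450.2, 1816, 819.6 and 1308 before transformation and 1641, 1827, 1595, 1534 and 904 in controls. It fell 2.10-fold against mice before transformation (adjusted p = 0.00304) and 2.24-fold against control (adjusted p = 0.000982), with an overlap made by mouse 4 before transformation and control 5. The brightest probe set, 1424827_a_at, had 1800.3 to 3092 in lymphomas and 2585 to 3107 before transformation and did not pass in any comparison, with differences of 0.09, -0.19 and -0.10. The falls of 1428537_at (-0.41 ± 0.15, adjusted p = 0.0487) and 1451497_at (-0.40 ± 0.13, adjusted p = 0.0221) were small. Probe set 1428537_at missed the threshold after centring (adjusted p = 0.208), after quantile normalization (adjusted p = 0.0677) and without lymphoma 3, 4, 5 or 8 or any 1 mouse before transformation (adjusted p up to 0.102), and 1451497_at missed it without mouse 4 or 5 before transformation (adjusted p up to 0.0656).

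**Figure D3:**
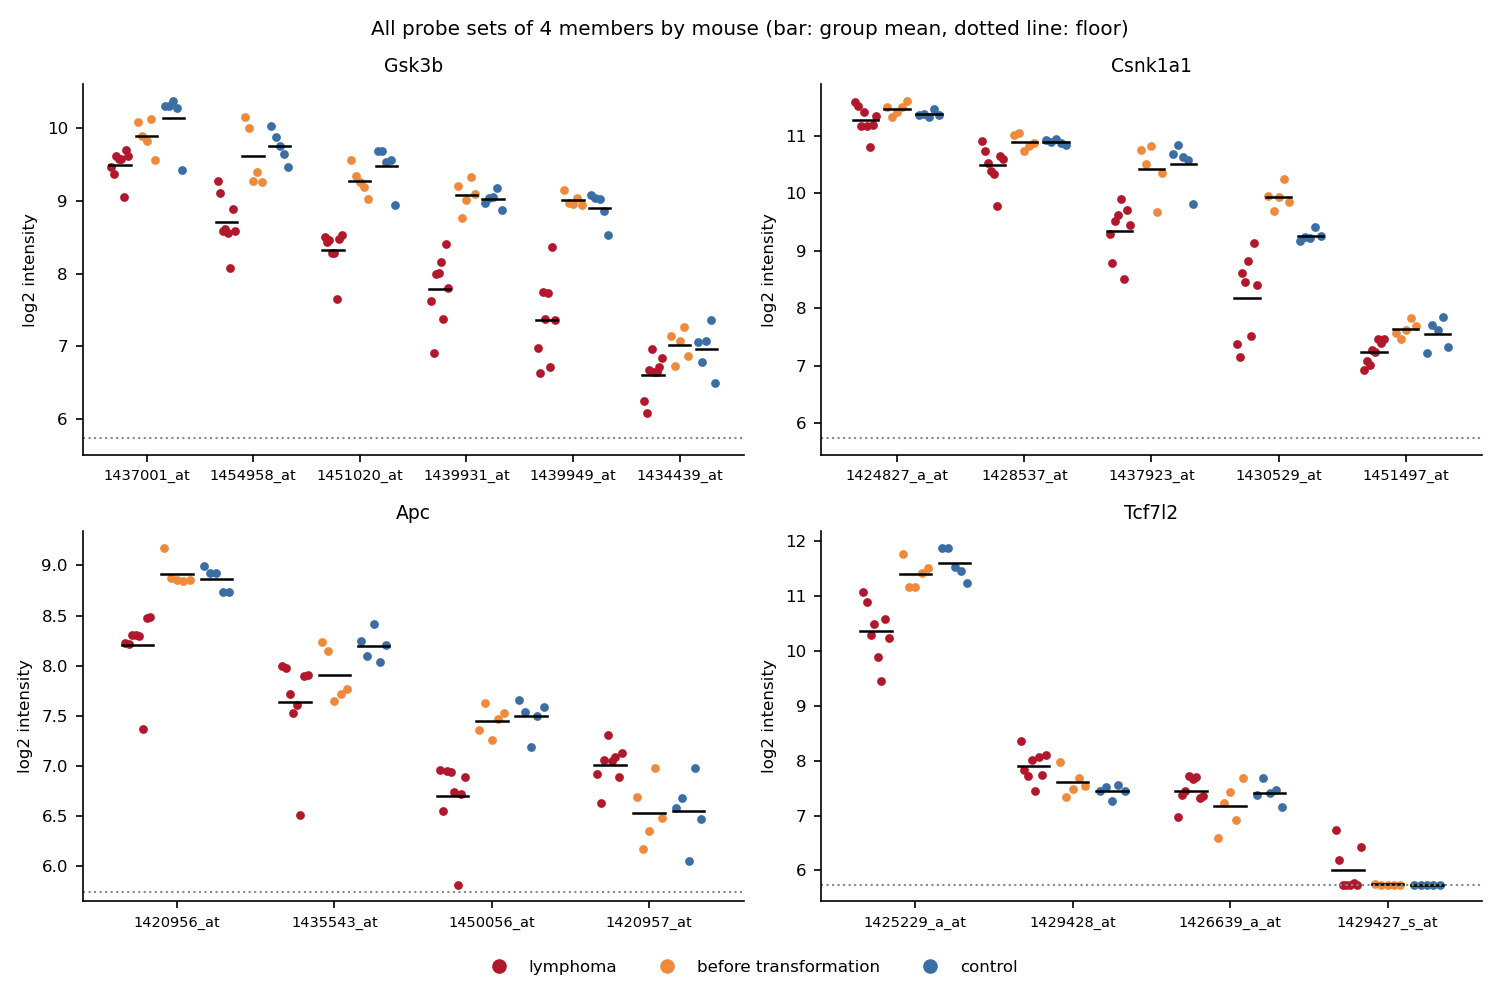
Log2 intensity of every probe set of Gsk3b, Csnk1a1, Apc and Tcf7l2, 1 point per mouse, grouped by probe set along the horizontal axis with lymphomas left, mice before transformation in the middle and controls right; bars are group means and the dotted line is the floor at 5.74. The lymphoma mean is the lowest on every Gsk3b probe set, and on 1430529_at of Csnk1a1 the 3 groups form 3 separate bands.

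Apc encodes the large scaffold of the complex, and its probe sets did not share a sign in tumours. The probe set that was higher there passed the filter on dim probe sets through the lymphomas, as given below. Probe set 1420956_at had 165 to 359 with a median of 316 in lymphomas, against 578, 469.5, 463, 459 and 462 before transformation and 511, 485, 485, 425 and 427 in controls. It fell without overlap by 0.71 ± 0.17 against mice before transformation (adjusted p = 0.00426) and 0.65 ± 0.16 against control (adjusted p = 0.00541). Probe set 1450056_at had 56.5 to 125 in lymphomas, against 165, 198, 154, 177 and 184 before transformation, and fell by 0.75 ± 0.18 (adjusted p = 0.0047), again without overlap.

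Probe set 1420957_at of Apc went the other way. It had 99.0 to 158 with a median of 133 in lymphomas, against 103, 72.4, 81.6, 126 and 89.4 before transformation, and rose by 0.47 ± 0.15 (adjusted p = 0.0246) with overlapping groups. This call missed the threshold without mouse 2, 3 or 5 before transformation (adjusted p up to 0.0654). Its difference from control, 0.46 ± 0.16 (adjusted p = 0.0301), missed it without lymphoma 4 or 8 or control 1, 3 or 5 (adjusted p up to 0.099). Without the lymphomas, the group in which it was higher, 1420957_at would not have passed the filter on dim probe sets. Its adjusted p values are therefore not a measure of support. Probe set 1435543_at fell by 0.56 ± 0.21 against control (adjusted p = 0.0469) and missed the threshold after centring or quantile normalization (adjusted p = 0.111 and 0.0902) and without lymphoma 3, 4 or 5 or any 1 control (adjusted p up to 0.111). None of the 4 changed before transformation. The files do not give the transcript stretch that each probe set reads.

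Axin1, the scaffold that limits assembly of the complex, and Pygo2, a coactivator that Bcl9 tethers to beta-catenin, had no probe set that passed in any comparison. Axin1 1426967_at passed in lymphomas against mice before transformation in 2 of 26 alternatives. Axin1 1426966_at varied widely within each group, with 515 to 1301 in lymphomas, 475 to 1347 before transformation and 589 to 1686 in controls. Its SD before transformation was 0.63 on the log2 scale, against 0.09 for Axin1 1426967_at in the same mice. Pygo2 1428249_at had 497 to 620.0 with a median of 571 in lymphomas, 527, 501, 468, 459 and 535 before transformation, and 538, 542, 488, 422 and 506 in controls, and it passed against control only after quantile normalization (adjusted p = 0.0305).

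Of the 5 Btrc probe sets, none changed before transformation or between lymphomas and mice before transformation, and 2 changed in opposite directions against control. Probe set 1425680_a_at had 131 to 299.8 with a median of 177 in lymphomas, 189, 237, 195, 200.0 and 191 before transformation, and 227, 220.4, 293, 297 and 398 in controls. It fell by 0.64 ± 0.19 in lymphomas against control (adjusted p = 0.0163), missed the threshold without control 5, the highest (adjusted p = 0.0532), and after centring or quantile normalization (adjusted p = 0.0628 and 0.0622), and the difference before transformation was -0.48 ± 0.16 (adjusted p = 0.0955). Probe set 1417325_at rose by 0.54 ± 0.17 in lymphomas against control (adjusted p = 0.0215), at intensities near the floor, and missed the threshold without control 2 or 3 (adjusted p up to 0.0628). It passed the filter on dim probe sets only through the lymphomas, the group in which it was higher. Its adjusted p is therefore not a measure of support, and the opposite direction among the Btrc calls rests on this probe set. Against mice before transformation 1417325_at did not pass (adjusted p = 0.0825) but did so in 6 of 25 alternatives, among them centring and leaving out lymphoma 2, its lowest tumour (adjusted p = 0.00599).

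Lef1, a TCF/LEF factor of immature T cells, was the member lowered before transformation on every one of its probe sets. Probe set 1454734_at had 1286 to 1679 with a median of 1400.3 in lymphomas, 1575, 1169, 1357, 1506 and 1358 before transformation, and 2036, 1946, 2103, 2062 and 1862 in controls. No mouse of either CD4Cre-Ctnnbex3 group reached the lowest control. It fell by 0.53 ± 0.09, or 1.44-fold, before transformation (adjusted p = 0.00195) and by 0.46 ± 0.08 in lymphomas (adjusted p = 0.000591), both against control. Both calls missed the threshold among mice numbered 1 and 2 alone (adjusted p = 0.106 and 0.0505) and passed in all the other alternatives run.

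Probe set 1421299_a_at of Lef1 had 800.3, 595, 590.2, 555 and 528 before transformation, against 1508, 1433, 1004, 1089 and 729.9 in controls. Its fall of 0.88 ± 0.19 before transformation (1.84-fold, adjusted p = 0.0117) passed in every alternative, with 1 mouse of overlap on each side. In lymphomas it fell by 0.62 ± 0.22 against control (adjusted p = 0.0329), and this missed the threshold without lymphoma 3, 4, 5, 6 or 7 or control 1, 2 or 4 (adjusted p up to 0.0971), after centring (adjusted p = 0.113) and with no filter on dim probe sets. Lymphomas 1, 2 and 8 had 1095, 1098 and 886, and the other 5 lay between 572 and 619. Between lymphomas and mice before transformation neither Lef1 probe set passed, at 0.07 ± 0.10 (1454734_at, adjusted p = 0.606) and 0.25 ± 0.20 (1421299_a_at, adjusted p = 0.328). In the comparison of mice before transformation with control, 5 of 8 granulocyte markers fell, and of the 11 T-cell markers 1 rose and 3 fell, and their part in the fall of Lef1 was not tested.

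**Figure D4:**
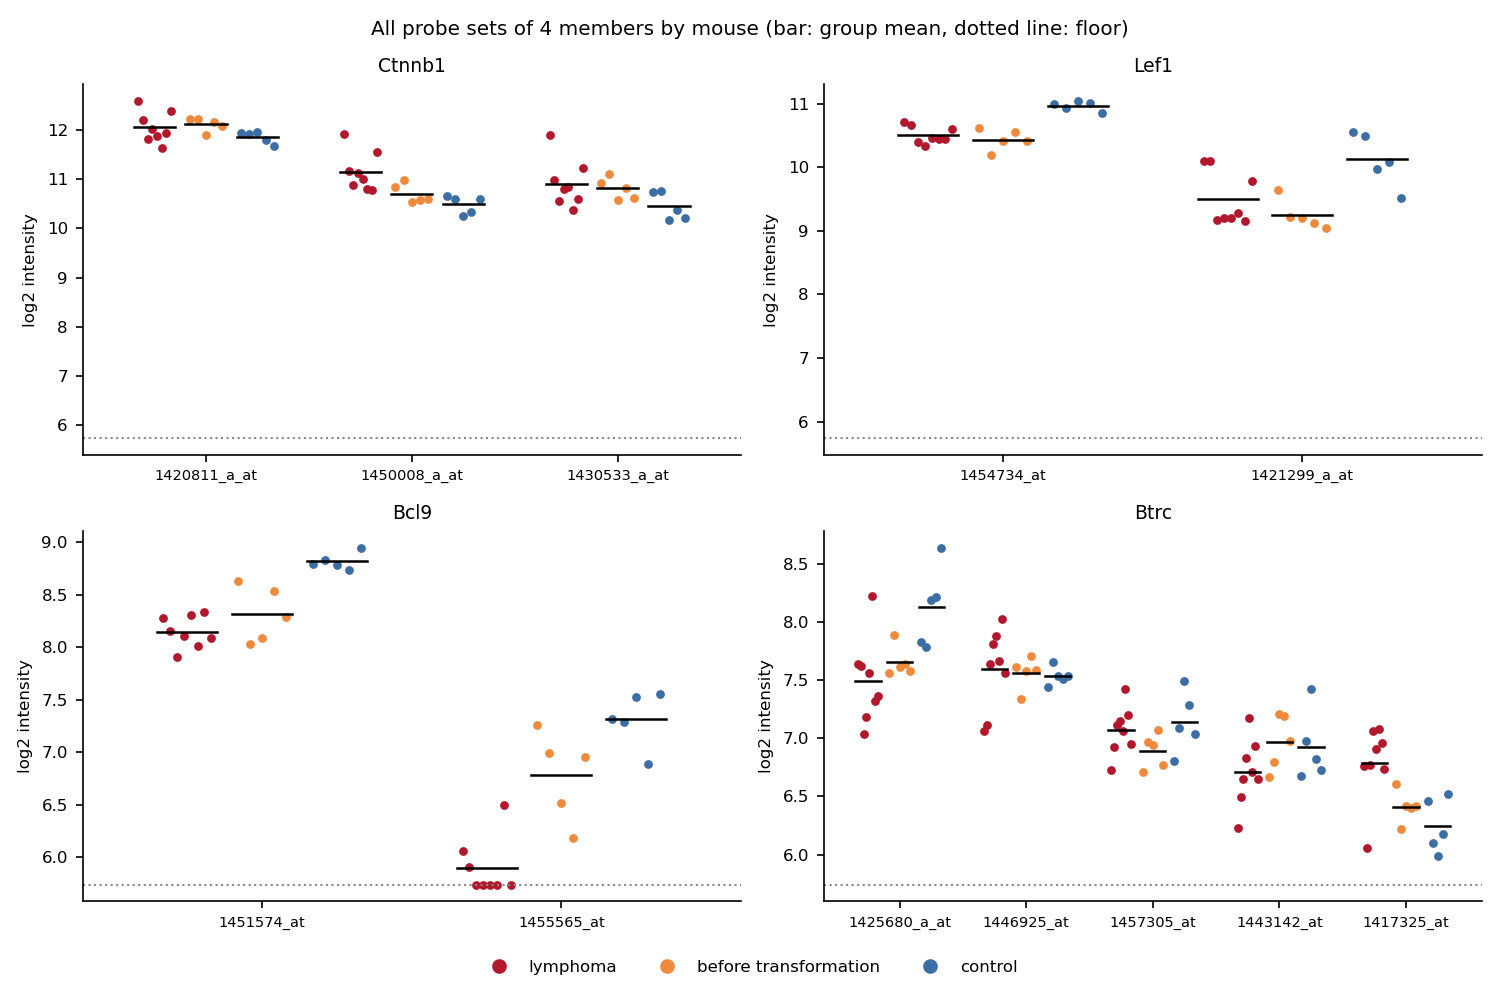
Log2 intensity of every probe set of Ctnnb1, Lef1, Bcl9 and Btrc, 1 point per mouse, with lymphomas left, mice before transformation in the middle and controls right for each probe set; bars are group means and the dotted line is the floor at 5.74. Controls lie above both CD4Cre-Ctnnbex3 groups on Lef1 1454734_at, and 5 of 8 lymphomas sit on the floor for Bcl9 1455565_at.

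Since Lef1 and Tcf7l2 are the DNA-binding members, the 150 bases before their first and last listed starts are shown, from RefSeq on GRCm38.p6 (plus strand, 5′ to 3′). Capitals mark a match to a TCF/LEF motif, which was searched on both strands as any of 4 words. These are CTTTGAA and its variant CTTTGAT, with CTTTGTA and its variant CTTTGTT. Coordinates follow each name.
Lef1 first start, chr3:131110147-131110296: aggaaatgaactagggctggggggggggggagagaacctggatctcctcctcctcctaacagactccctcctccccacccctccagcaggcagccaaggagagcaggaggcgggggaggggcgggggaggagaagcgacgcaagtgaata
Lef1 last start, chr3:131156144-131156293: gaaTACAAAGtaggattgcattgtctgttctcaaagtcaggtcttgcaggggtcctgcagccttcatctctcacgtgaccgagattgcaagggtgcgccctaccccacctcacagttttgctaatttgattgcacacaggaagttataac
Tcf7l2 first start, chr19:55741660-55741809: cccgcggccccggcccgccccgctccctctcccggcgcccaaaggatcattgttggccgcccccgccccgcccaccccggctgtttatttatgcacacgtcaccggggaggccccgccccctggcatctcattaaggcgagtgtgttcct
Tcf7l2 last start, chr19:55895171-55895320: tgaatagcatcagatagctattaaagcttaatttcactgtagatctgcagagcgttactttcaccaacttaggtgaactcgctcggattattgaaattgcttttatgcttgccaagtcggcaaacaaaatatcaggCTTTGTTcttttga
In these windows the last listed start of each gene had 1 match, TACAAAG 147 bases before the Lef1 start and CTTTGTT 14 bases before the Tcf7l2 start, and the first listed start of each had none. Any member windows on 1 chromosome were left out, and the search covered 13 windows for 6 of the member genes. These 2 were the only ones of the 13 with a match anywhere in the 300 bases around the start. Of all 32851 windows, with no chromosome left out, 16.9% have a match in those bases and 8.40% in the 150 bases before the start. A match describes letters, not binding.

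Tcf7l2, the other DNA-binding member, was lowered in tumours on its bright probe set. Probe set 1425229_a_at had 706 to 2155 with a median of 1351 in lymphomas, 3478, 2289, 2296, 2751 and 2919 before transformation, and 3768, 3761, 2948, 2836 and 2421 in controls. Every lymphoma lay below every mouse of both other groups. It fell 2.05-fold against mice before transformation (-1.04 ± 0.23, adjusted p = 0.00255) and 2.35-fold against control (-1.23 ± 0.23, adjusted p = 0.000585), and the difference before transformation, -0.19 ± 0.15, missed the threshold (adjusted p = 0.541). Lymphomas 1 and 2 were the highest tumours, at 2155 and 1901, and among mice numbered 1 and 2 alone the difference from mice before transformation was -0.48 (adjusted p = 0.17), against -1.21 among those numbered 3 and up (adjusted p = 0.00285).

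The dim probe sets of Tcf7l2 did not follow. Probe set 1429428_at had 174 to 329.8 with a median of 244 in lymphomas, against 175, 183, 154, 189 and 174 in controls, and rose by 0.47 ± 0.14 (adjusted p = 0.0175), a call that missed the threshold without control 3 (adjusted p = 0.0521) and in 4 other alternatives. Probe set 1426639_a_at differed by 0.28 ± 0.18 from mice before transformation and 0.03 ± 0.14 from control and did not pass (adjusted p = 0.255 and 0.885). Probe set 1429427_s_at, which was not tested, was at the floor on 4 of 8 lymphomas, 4 of 5 mice before transformation and all 5 controls.

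Bcl9, the adaptor that links beta-catenin to Pygo2, fell in lymphomas against control on both of its probe sets and before transformation on 1 of them. Probe set 1451574_at had 240.0 to 323 with a median of 280.3 in lymphomas, 396, 261, 273, 372 and 311 before transformation, and 443, 456, 439, 425 and 492 in controls. Controls lay above every other mouse. The fall was 0.67 ± 0.10 in lymphomas (1.59-fold, adjusted p = 0.000134) and 0.50 ± 0.13 before transformation (1.42-fold, adjusted p = 0.0275). The call before transformation passed in 14 of 24 alternatives and missed the threshold without mouse 3 or 5 before transformation or control 1, 2, 3 or 5 (adjusted p up to 0.0672). It was also lost with sex as a covariate and with the mouse number as a replicate block. The same held among mice numbered 1 and 2 alone and among those numbered 3 and up alone.

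Probe set 1455565_at of Bcl9 was at the floor in 5 of 8 lymphomas and reached 90.3 in lymphoma 7, against 154, 128, 91.7, 72.7 and 124 before transformation and 159, 156, 185, 118 and 188 in controls. It was at least 1.85-fold lower in lymphomas than before transformation (adjusted p = 0.00251) and at least 2.67-fold lower than in controls (adjusted p = 1.23e-05). The second of these is the smallest adjusted p among the members, but it is not a measure of strength. No lymphoma lay above the filter on dim probe sets, which 1455565_at passed only through the other groups. The floor also limits the spread of the lymphomas. Before transformation 1455565_at differed from control by -0.53 ± 0.21 and did not pass (adjusted p = 0.155).

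The falls in tumours go with the fall of all 11 T-cell markers and with the changes of macrophage and granulocyte markers given above for each comparison. The 3 of 8 thymic epithelium markers called in either comparison lay near the share over all genes. Of the fibroblast and endothelium markers, 1 of 6 was called against mice before transformation, under that share of 34.6%, and 3 of 6 against control, beside 39.9%. In bulk RNA, fewer cells of a type and less RNA per cell cannot be told apart, and the part of cell content in these differences was not tested. With sex as a covariate and lymphoma 4 left out, none of the 33 probe sets passed in lymphomas against mice before transformation by limma. In that fit 4.37% of all probe sets passed. That fit rests on lymphoma 3 as the single tumour with the male signal. Against control, where both sexes are present, 13 of 33 passed in the same fit, all lower, beside 31.9% of all probe sets. They include the 5 Gsk3b probe sets that fell, Tcf7l2 1425229_a_at and both probe sets of Bcl9 and of Lef1.

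Among the tumours, lymphoma 6 had the lowest of the 8 tumour values on 12 of the 33 probe sets, and it was lowest on 21.3% of all 29947. It was the lowest tumour on the 3 Apc probe sets that were lower in tumours, on 1451020_at, 1437001_at and 1454958_at of Gsk3b and on 1425229_a_at of Tcf7l2. Lymphoma 1 had the highest value on 11 of the 33, among them all of Ctnnb1, beside 20% of all probe sets. Lymphoma 7 had it on 7, among them 3 of Gsk3b and both of Bcl9, and was also highest on 20% of all, so its count lies at the background. Before transformation, mouse 1 was highest on 14 of the 33, beside 16.4% of all.

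Axin2, the best known direct target of beta-catenin and a second scaffold of the complex, rose in both CD4Cre-Ctnnbex3 groups. It had 1129.9 to 2208 with a median of 1636 in lymphomas, 865, 740.0, 1237, 743 and 770.4 before transformation, and 312, 331, 311, 305 and 295 in controls. It rose 2.75-fold before transformation (1.46 ± 0.14, adjusted p = 3.54e-05) and was a further 1.83-fold higher in lymphomas than before transformation (0.88 ± 0.18, adjusted p = 0.00166), and 5.04-fold higher in lymphomas than in control. Axin2 passed between lymphomas and mice before transformation in every alternative, the sex covariate included. Ryk did so too among the other called list genes described here, but it passed the filter on dim probe sets only through the lymphomas. Tcf7, the other T-cell TCF factor, was not analysed here.

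The wider pathway was described by lists, each gene by its brightest probe set, beside a background over 14019 genes. That background was 10.4% called before transformation against control (4.34% higher and 6.06% lower), 34.6% in lymphomas against mice before transformation (16.1% higher and 18.5% lower) and 39.9% in lymphomas against control (17.3% higher and 22.6% lower). Among 18 destruction complex regulators 2 rose and 2 fell before transformation, 3 rose and 4 fell in lymphomas against those mice, and 3 rose and 5 fell against control. The median log2 difference of this list was -0.00, -0.19 and -0.23. Csnk1e, a casein kinase that acts upstream on Dishevelled, had 573, 465, 594, 546 and 586 before transformation, against 744, 740.2, 855, 941 and 1244 in controls, and fell by 0.69 ± 0.14 (adjusted p = 0.00882). Ppp2ca, the catalytic subunit of the phosphatase PP2A, fell by 0.24 and Tnks2, a tankyrase that marks axin for breakdown, rose by 0.24 before transformation (adjusted p = 0.0395 and 0.042), and both calls were lost on leaving out most single mice, with an adjusted p of up to 0.103 without 1 mouse for Ppp2ca and 0.0964 for Tnks2.

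In lymphomas Frat2, which binds and inhibits GSK3, had 906 to 1833 with a median of 1551, against 925, 755, 505, 702 and 555 before transformation, and rose 2.13-fold (adjusted p = 0.000474). Skp1, a subunit of the ligase that works with the Btrc protein, rose by 0.66 ± 0.13 (adjusted p = 0.00157). Tnks2 fell by 0.44 ± 0.11 (adjusted p = 0.00732), a call lost after centring (adjusted p = 0.094).

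Among 24 nuclear partners 1 rose and 4 fell before transformation, 4 rose and 7 fell in lymphomas against those mice, and 5 rose and 11 fell in lymphomas against control, with medians of -0.08, -0.14 and -0.18. Nlk, a kinase that phosphorylates TCF/LEF factors, had 1775, 1658, 1253, 1214 and 1289 before transformation, against 826, 783, 776, 806 and 806 in controls, and rose 1.78-fold (adjusted p = 0.000505). Smarca4, the ATPase of a chromatin remodelling complex, fell by 0.53 ± 0.09 before transformation (adjusted p = 0.00339) and by 0.79 ± 0.07 in lymphomas against control (adjusted p = 7.4e-07). Crebbp, an acetyltransferase that beta-catenin recruits, had 582 to 812 with a median of 728 in lymphomas, 1253, 1026, 1132, 961 and 964 before transformation and 1528, 1346, 1386, 1430.5 and 1535 in controls. The 3 groups of Crebbp did not overlap, and it fell by 0.44 ± 0.09 before transformation (adjusted p = 0.00774) and by a further 0.57 ± 0.11 in lymphomas (adjusted p = 0.000889). Tbl1xr1, a subunit of a corepressor complex, fell by 0.36 before transformation (adjusted p = 0.00908), a call lost in 4 of 24 alternatives, centring among them.

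Ctnnbip1 encodes an inhibitor that keeps beta-catenin from TCF factors. It had 565 to 771 with a median of 643 in lymphomas, against 396, 421, 401, 347 and 340.4 before transformation and 332, 345, 282, 284 and 294 in controls. It rose 1.73-fold against mice before transformation (adjusted p = 0.000127) and 2.15-fold against control (adjusted p = 3.52e-06), without overlap in either. Ruvbl1, an ATPase that binds beta-catenin, rose 2.04-fold in lymphomas against mice before transformation (adjusted p = 0.00026), and Tle5, a short member of the Groucho corepressor family, fell 2.26-fold (adjusted p = 0.00045).

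Of 23 Wnt receptors and Dishevelled genes 17 were tested. Znrf3, a ligase that removes Frizzled receptors and is itself a Wnt target, had 1042, 837, 622, 720.0 and 424 before transformation, against 278, 273, 353, 397 and 277 in controls, and rose 2.24-fold (adjusted p = 0.00455), as the only 1 of the 17 called. In lymphomas against mice before transformation 1 rose and 1 fell. Ryk, a Wnt co-receptor, had 319.6 to 677 with a median of 437 in lymphomas. It was at the floor in all but 1 of the CD4Cre-Ctnnbex3 mice without a tumour and in each control. Lymphomas were at least 8.5-fold higher than mice before transformation (adjusted p = 1.39e-07). Ryk passed the filter on dim probe sets only through the lymphomas, and the floor narrows the spread of the other groups. Its adjusted p is therefore not a measure of support. Lgr4, a receptor for R-spondins, fell by 0.54 ± 0.13 (adjusted p = 0.0054). Against control 2 of the 17 rose and 3 fell, among them Fzd8, at the floor in 7 of 8 lymphomas and at least 2.24-fold lower, and Fzd1, which fell by 0.45 ± 0.12.

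Of 21 Wnt ligands and export genes 12 were tested. Before transformation against control 2 of the 12 rose and 0 fell, beside 10.4% of all genes called. In lymphomas 1 rose and 3 fell against mice before transformation, beside 34.6%, and 2 rose and 2 fell against control, beside 39.9%. Wls, which carries Wnt proteins to the cell surface, had 60.4 to 189.9 with a median of 95.3 in lymphomas, against 656, 669, 331, 433 and 489 before transformation and 335, 309, 297, 281 and 362 in controls. It fell 4.96-fold against mice before transformation (adjusted p = 7.39e-05), and its rise of 0.66 ± 0.18 before transformation (adjusted p = 0.0424) was lost on leaving out 9 of 10 mice in turn, with an adjusted p of up to 0.0977. Wnt5b had 391, 504, 226, 259 and 327 before transformation, against no more than 119 in any control, and rose by 1.86 ± 0.26 (adjusted p = 0.000611). In lymphomas against mice before transformation Wnt6 rose by 0.63, and Wnt9a and Wnt8a fell by 0.50 and 0.48 (adjusted p = 0.00554, 0.00788 and 0.0142).

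Beta-catenin also links cadherins to the cytoskeleton, and 6 of 10 genes of that complex were tested. Before transformation against control 1 of the 6 rose and 0 fell, beside 10.4% of all genes called. In lymphomas 1 rose and 1 fell against mice before transformation, beside 34.6%, and 1 rose and 0 fell against control, beside 39.9%. Ctnna1, the alpha-catenin that joins beta-catenin to actin, had 280.1 to 531 with a median of 414 in lymphomas, 1149.7, 741, 664, 689 and 725 before transformation and 375, 368, 292, 290.4 and 362 in controls. It rose 2.32-fold before transformation (adjusted p = 0.000341) and was 1.90-fold lower in lymphomas than before transformation (adjusted p = 0.000865), so that lymphomas and controls differed by 0.28 ± 0.15 (adjusted p = 0.155). Ctnnd1, the p120 catenin, rose by 0.47 ± 0.14 in lymphomas against mice before transformation (adjusted p = 0.0182).

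**Figure D5:**
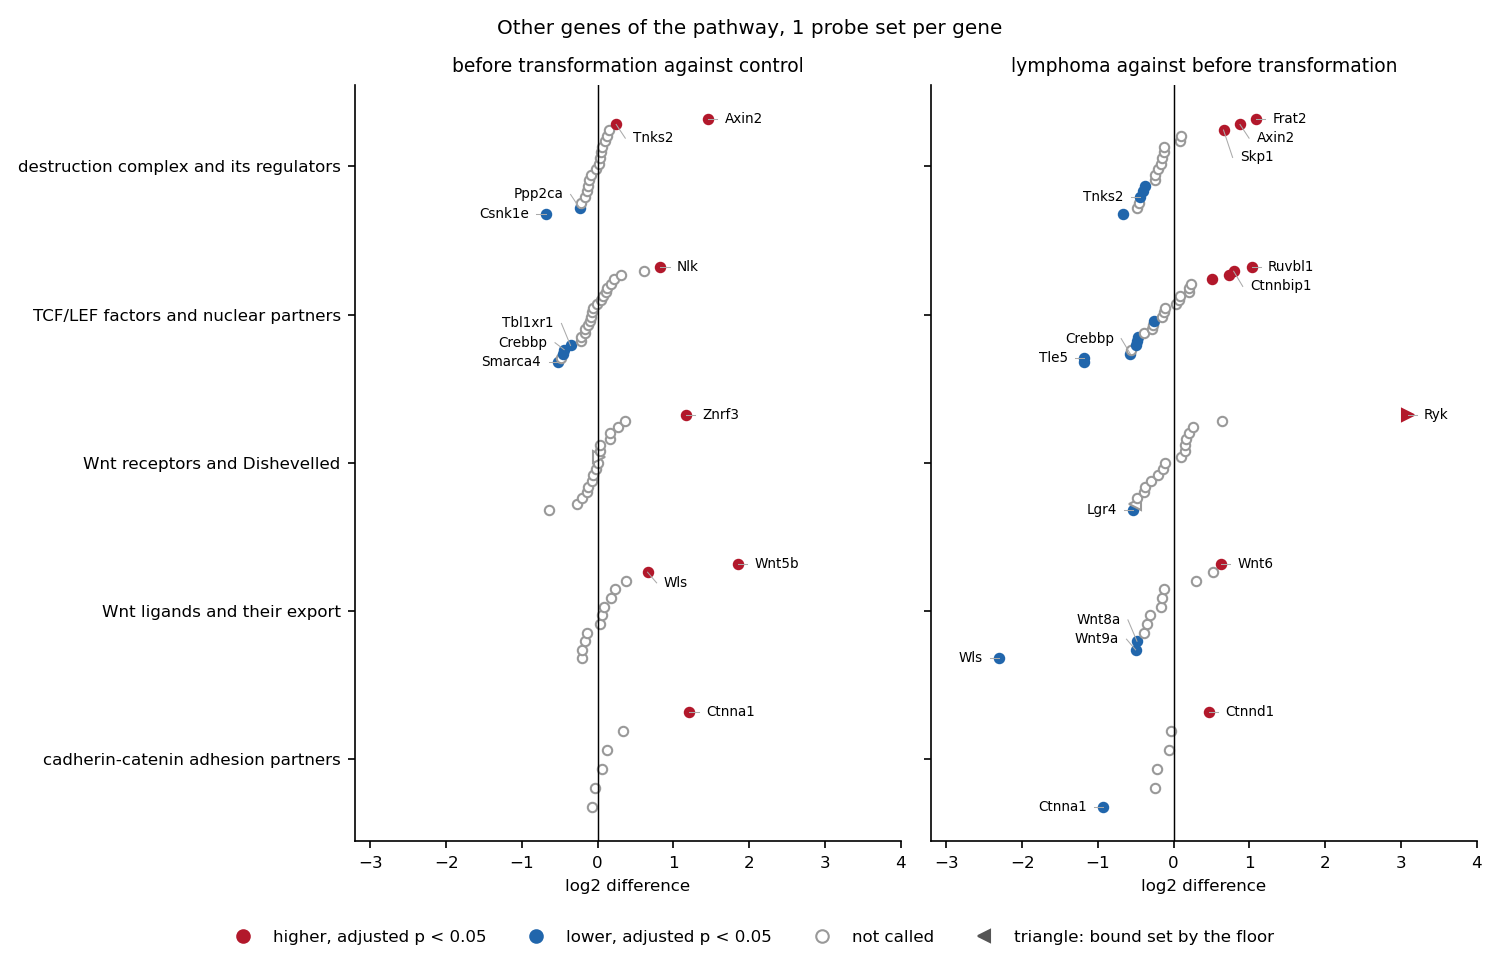
Log2 differences of the other pathway genes, 1 brightest probe set each, in 5 lists down the page, for mice before transformation against control (left) and lymphomas against mice before transformation (right); filled points passed an adjusted p of 0.05 and triangles are bounds. Axin2 lies right of 0 in both panels, Ctnna1 and Wls lie right on the left panel and left on the right panel, and Crebbp lies left in both.

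By Pearson correlation of log2 values over the 18 arrays, among 14019 genes, the genes most like Lef1 1454734_at were Pip4k2b (r = 0.929), Slc29a3, Tdrd5, Scn4b and Zmiz1 (r = 0.869). Those most like Tcf7l2 1425229_a_at were Aftph (r = 0.961), Tmem156, Cggbp1, Dgkd and Fbxl14 (r = 0.952). Those most like Ctnnb1 1420811_a_at were Il5ra (r = 0.835), Atp2c1, Mpp5, Tmem151a and Ccnyl1 (r = 0.808), a looser likeness than for the TCF/LEF factors. The arrays share their scaling and their 3 groups, so these values describe likeness of pattern over the same 18 mice and nothing more.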

How the data were processed

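Total RNA of 18 mice was labelled and hybridized to Affymetrix mouse expression arrays, 1 per mouse. According to the series' design text, the authors derived one intensity per probe set in dChip. The sources used here do not give its version, expression model or scaling, or a genome build. The deposited intensity table holds 45101 probe sets, of which 64 are array controls. Blanks made up 1.20% of values, and control 1 had no blanks but 605 of the 606 negative values. Low, negative and blank values were raised to the 20th percentile (53.5, log2 5.74) before log2 was taken. The deposited scaling was kept, and medians of arrays spanned 0.41 in log2.

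Groups came from the sample titles. Probe sets were named by the platform annotation, and symbols updated through Entrez IDs served only to find the list genes in it. Of all probe sets, 29947 above the 40th percentile (109) on at least 5 arrays were fitted with limma 3.58.1 in R 4.3.3 (lmFit, eBayes with trend), on the 2 groups compared, with Benjamini-Hochberg adjustment over all of them. Every adjusted p is limma's. The code was tested on simulated data. A fold is given as "at least" where at least as many mice of a group lay at the floor as above it. The number of arrays limits the precision.

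The genes and lists were chosen with earlier results of these data known, and the members' calls are described by counts beside the background. Named genes are all 10 members, Axin2 and Tcf7, up to 4 called genes per list and comparison with the smallest adjusted p, and the 5 genes most correlated with Ctnnb1, Lef1 and Tcf7l2. Alternatives changed the floor, filter, scaling, unit, samples and covariates. Tcf7, Siah1b, Lck and some other list genes were not analysed here. Marker counts for B cells, fibroblasts and endothelium, and erythroid cells in lymphomas against mice before transformation were 0 of 6 called, 1 of 6 higher and 0 of 2 called.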

Additional observations from a re-analysis of the deposited data

Results flagged for a closer look

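Among 101 sets of values, each 1 member probe set in 1 group of mice, 13 held a mouse that lay far from the rest of its group by Dixon's test. Chance flags about 1 in 20 groups. Lymphoma 6 stood below the other tumours on 1420956_at of Apc (165, the others 297 to 359), 1435543_at of Apc (91.5, the others 184 to 255), 1450056_at of Apc (56.5, the others 94.1 to 125) and 1451020_at of Gsk3b (201, the others 312 to 372). Lymphoma 2 stood below them on 1417325_at of Btrc (66.6, the others 107 to 135), and lymphoma 7 stood above them on 1455565_at of Bcl9 (90.3, the others up to 66.8). Before transformation, mouse 1 was apart on 1420956_at of Apc (578, the others 459 to 469.5), 1421299_a_at of Lef1 (800.3, the others 528 to 595) and 1429427_s_at of Tcf7l2 (54.1, just above the floor with the others under it). Mouse 2 before transformation was high on 1425680_a_at of Btrc (237, the others 189 to 200.0). Control 5 was low on 1437001_at of Gsk3b (687, the others 1246 to 1323), 1451020_at of Gsk3b (492, the others 745 to 827) and 1437923_at of Csnk1a1 (904, the others 1534 to 1827).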

How the results depend on the processing

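No member probe set that passed changed sign under any alternative. The number of member probe sets called before transformation against control was 4, and it was 2 of 10 with 1 probe set per gene, 1 among mice numbered 1 and 2, and 3 to 4 on leaving out each mouse in turn. In lymphomas against mice before transformation it was 14, and it was 3 of 10 with 1 probe set per gene, 0 with sex as a covariate without lymphoma 4, and 11 to 15 on leaving out each mouse. Against control it was 21, and it was 6 of 10 with 1 probe set per gene, 13 with the sex covariate, and 16 to 21 on leaving out each mouse. Over all genes, 1 probe set per gene gave 1479, 4816 and 5619 calls of 14019 in the 3 comparisons. Over all 29947 probe sets, mice numbered 1 and 2 gave 2430 calls before transformation against control. Leaving out each mouse gave 2375 to 3323, 8791 to 11547 and 10327 to 13042 calls. The shares beside the sex covariate are given above. With 1 probe set per gene fewer are tested, and the cause of these changes in count was not tested. Of the calls, 1 of 4, 7 of 14 and 10 of 21 passed in all alternatives that tested them other than the sex covariate, with mouse subsets and left-out mice included. With the mouse number as a replicate block the counts were 4, 16 and 20, made of 3 of the 4, 14 of the 14 and 18 of the 21 calls and of 1, 2 and 2 new ones. Beside them, 3053, 11506 and 10763 of all 29947 probe sets passed. With mice numbered 1 and 2 and those numbered 3 and up as 2 blocks the member counts were 6, 18 and 23, with 4, 14 and 20 of the calls kept and 2, 4 and 3 new ones. Beside these, 4147, 14330 and 13816 of all 29947 probe sets passed. Deviations of mice that share a number correlated between -0.14 and 0.38. They lay above 0.1 in all 3 comparisons for numbers 1 and 4 but not for numbers 2, 3 and 5. Mice with different numbers were not compared in this way, so these values cannot decide whether the numbers pair the mice. The main fit used no pairing and no blocks. Signals near the floor, as for 1455565_at of Bcl9, give bounds only.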
